A study of Rattus norvegicus with 40 samples.

Results

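DNA methylation of kidney T cells was compared between 2 colonies of Dahl salt-sensitive rats that had eaten HS chow, over every region of the authors' table for that comparison. The members were all its rows, 35347 regions of at least 5 CpGs, of the 630893 regions in the 15 tables of the series. The study measured methylation by reduced representation bisulfite sequencing, which reads CpG-rich fragments of the genome, in T cells from the kidney and from the circulation. The 2 groups were Dahl SS/JrHsdMcwi rats (the SS/MCW colony, MCW here) and Dahl SS/JrHsdMcwiCrl rats (the SS/CRL colony, CRL here), both 10 weeks old and both on HS chow, read here as high salt, for 3 weeks. Each group had 4 pools of 3 rats, so that 8 kidney libraries entered. Both colonies carry the salt-sensitive Dahl SS background, so no salt-resistant strain stands in the comparison. A further 3 kinds of group are used beside it: kidney T cells of MCW and CRL rats on LS chow (read as low salt) at 10 weeks, circulating T cells of the same HS rats, and circulating T cells of the LS rats, each with 4 pools.

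The labels call the cells T cells and give no sort or gate. Cd3e, Cd3d, Cd3g, Cd4 and Lck, which define T cells, had no region in the table, so that the label could not be checked at these genes. The promoter of Lat, the adaptor of the T cell receptor, was at 0.0403% in MCW and 0% in CRL blood on LS chow, but at 32.1% and 35.0% in MCW and CRL kidney on HS chow. Both tissue and chow differ between these values, and Lat lies outside the rule by which genes are named here. Most regions of T cell genes went the other way between tissues. On LS chow, 23 regions of T cell receptor and identity genes could be compared between kidney and blood. Of these, 14 were called lower in kidney in both colonies and 5 higher. The values are group means of the authors, in percent of methylated cytosines. Pools were not listed singly and read depth is unknown, and a level therefore carries no spread. Libraries were run 13 or 14 to a lane, and lane and colony cannot be told apart. In a bulk preparation, a different share of some other cell type and a different methylation within the T cells cannot be told apart either.

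Methylation of cytosine at CpG sites is copied to the daughter strand at cell division by Dnmt1, laid down anew by Dnmt3a and Dnmt3b, and removed through the Tet enzymes. Promoters rich in CpGs are mostly unmethylated, whereas gene bodies and intergenic DNA are mostly methylated, and regulatory regions in use by a cell type tend to be low. In the Dahl SS rat, salt raises blood pressure and damages the kidney, and T cells that enter the kidney take part in that damage. Ribosomal DNA, the repeated genes for ribosomal RNA, holds methylated and unmethylated copies side by side.

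The sequences below give examples of promoters that carried a difference. Acbd4 and Usp46 are among the promoters with the largest decreases in CRL, and Syk and Cd37 are promoters with increases on both chows. Another promoter region of Cd37 was lower in CRL on HS chow (61.0% in MCW and 42.2% in CRL). Each sequence is the 250 bases before the gene's start in RefSeq (build GRCr8), read 5′ to 3′ on the gene's strand, with CpG sites in capitals. The measured regions lie on the rn5 build, and whether they fall inside these windows was not tested.

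Acbd4 (chr10:88549358-88549607, + strand): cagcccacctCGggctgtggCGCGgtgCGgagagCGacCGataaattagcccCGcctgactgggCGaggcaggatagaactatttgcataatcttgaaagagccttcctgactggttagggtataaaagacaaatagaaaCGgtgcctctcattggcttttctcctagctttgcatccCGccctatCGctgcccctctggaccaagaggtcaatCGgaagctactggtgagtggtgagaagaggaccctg

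Usp46 (chr14:34503900-34504149, + strand): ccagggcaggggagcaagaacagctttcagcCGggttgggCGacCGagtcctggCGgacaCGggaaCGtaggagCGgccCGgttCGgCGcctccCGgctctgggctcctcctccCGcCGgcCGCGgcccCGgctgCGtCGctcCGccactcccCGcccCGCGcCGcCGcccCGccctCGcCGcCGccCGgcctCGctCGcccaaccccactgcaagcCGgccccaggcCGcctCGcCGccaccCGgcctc

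Syk (chr17:12813274-12813523, - strand): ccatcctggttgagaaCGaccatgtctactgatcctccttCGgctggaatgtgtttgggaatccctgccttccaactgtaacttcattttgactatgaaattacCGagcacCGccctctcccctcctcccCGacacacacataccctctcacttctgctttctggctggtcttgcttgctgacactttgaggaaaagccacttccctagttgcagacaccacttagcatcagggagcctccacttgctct

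Cd37 (chr1:104860785-104861034, - strand): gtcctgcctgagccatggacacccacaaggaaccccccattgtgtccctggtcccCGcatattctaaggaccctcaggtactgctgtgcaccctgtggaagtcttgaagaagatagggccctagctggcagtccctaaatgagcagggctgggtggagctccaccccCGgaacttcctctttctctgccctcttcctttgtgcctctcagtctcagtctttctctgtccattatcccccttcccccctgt

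These windows hold 12 CpGs for Acbd4, 36 for Usp46, 5 for Syk and 2 for Cd37. Among the examples CpG number did not fully part the directions, since the window of Prr15, a promoter with an increase, holds 15 and that of Bckdk, with a decrease, 9. The median over all 27457 promoters of the RefSeq table was 6. Genes with a promoter region in the methylation table had a median of 18 CpGs (3966 of 5122 genes matched), those with a region lower in CRL 14 (170 of 234 matched) and those with a region higher in CRL 7 (11 of 12 matched). The difference between these medians was not tested.

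Kidney T cell preparations of CRL rats were less methylated than those of MCW rats at most regions that differed. To be called, a region needed an adjusted p under 0.05 and at least 10 percentage points of difference, both as the authors' deposited table gives them. By this rule 1991 regions differed (5.63% of those tested), of which 1812 were lower in CRL (5.13%) and 179 higher (0.506%). The lower regions had a median level of 36.3% in MCW and 20.3% in CRL, with a median difference of -14.4 percentage points. The higher ones had 24.9% and 39.7%, with a median difference of 12.8. Over all 35347 regions, called or not, 67.3% were lower in CRL, the median difference was -1.02 percentage points, and the mean level was 32.5% in MCW and 30.4% in CRL. The calls rest on the authors' p-values, which treat CpGs as independent: with 4 pools a side, an exact rank test has 0.0286 as its smallest two-sided p, so the p-values printed below speak of these pools only. The values next to the limit of 10 percentage points were -10.001 and -9.985 among decreases and 10.004 and 9.943 among increases.

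**Figure D1:**
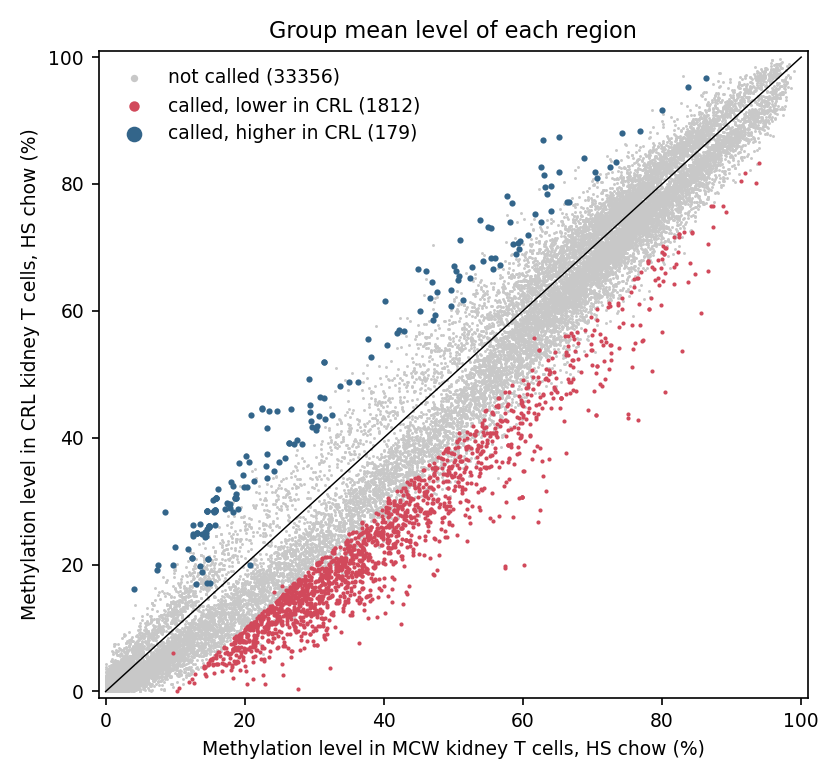
Each point is a region, with its mean methylation level (%) in MCW kidney T cells on the horizontal axis and in CRL kidney T cells on the vertical axis, both on HS chow. The line marks equal levels. The 1812 regions called lower in CRL lie below it, mostly at intermediate levels, and the 179 called higher lie above it.

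Intermediate levels held most of the decreases. Regions at 20 to 40% in MCW made up 9.35% of all regions and 53.2% of those lower in CRL, with 964 of 3305 called lower (29.2%). At 40 to 60% the share was 14.0%, and at 80 to 100% it was 1.17%. A region under 10% in MCW cannot be lower by 10 percentage points unless the authors' difference departs from their levels, and 0 of 14037 regions under 5% and 1 of 1703 at 5 to 10% were called lower.

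By the authors' annotation, 648 of 7597 gene body regions were lower in CRL (8.53%), 927 of 16983 intergenic regions (5.46%) and 237 of 10767 promoter regions (2.20%). Promoter regions were mostly unmethylated, with a median of 0.931% in MCW and 0.559% in CRL. Among regions that reached 10% in at least 1 colony, the share lower in CRL was 12.9% of 1825 promoter regions, 10.5% of 6155 gene body regions and 7.85% of 11805 intergenic regions, so that the order of the classes turned. At matched levels the order depended on the level: among regions with a mean level of 10 to 20% the share lower was 24.6% in gene bodies, 17.3% between genes and 11.8% at promoters, and at 20 to 40% it was 32.5%, 26.1% and 24.6%. At 40 to 60% it was 10.4%, 8.82% and 11.6%. The increases numbered 46 at promoters (0.427%), 50 in gene bodies (0.658%) and 83 between genes (0.489%), beside 0.506% of all regions. Without ribosomal DNA they were 12 of 10523 promoter regions (0.114%) and 36 of 7522 gene body regions (0.479%), with the 83 between genes unchanged.

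The largest decrease lay at the promoter of Acbd4, which encodes an acyl-CoA binding protein. That region, 5 CpGs on chromosome 10 from 90960935 to 90961097, was at 60.2% in MCW and 19.9% in CRL (the authors' deposited table gives an adjusted p of 1.82e-06). On LS chow the promoter was at 31.4% and 6.0% in kidney, also called lower, while blood on HS chow was at 82.0% and 79.1%. On HS chow kidney was below blood in both colonies, and CRL kidney was below MCW kidney on each chow. A gene body region of the same gene went the other way between chows, at 47.8% in MCW and 32.3% in CRL on HS chow and at 15.5% and 32.3% on LS chow.

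Ndufa10 encodes a subunit of respiratory complex I. Its promoter (listed as Ndufa10l1 and Ndufa10, chromosome 9 from 99316812 to 99316832) was at 62.2% in MCW and 26.8% in CRL kidney on HS chow (the authors' deposited table gives an adjusted p of 3.04e-06). On LS chow both colonies were low in kidney, at 9.14% and 6.68%. In blood of the same HS rats the colony difference was reversed, at 39.9% in MCW and 62.0% in CRL, and called there. MCW on HS chow was the highest of the 4 kidney groups.

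The promoter of Usp46, a deubiquitinating enzyme, was at 80.4% in MCW and 47.2% in CRL (chromosome 14 from 36515595 to 36515720, the authors' deposited table gives an adjusted p of 5.54e-06), and at 35.8% and 21.6% in kidney on LS chow. Gene body regions of Acvr2b, an activin receptor, were at 76.5% and 42.8%, and of the collagen gene Col18a1 at 58.6% and 27.5%. Seli (63.3% and 31.5%) and Tacc1 (47.2% and 18.4%), a centrosomal coiled-coil gene, were also among the largest decreases, as was the vomeronasal receptor Vom2r4 (59.9% and 30.7%). In Vom2r4, 3 regions of 9 CpGs had identical levels, so that copies of this receptor family may share reads and the value is uncertain. Blood differed by under 5 percentage points between colonies at Acbd4, Usp46, Col18a1, Vom2r4 and Tacc1, whereas at Ndufa10, which also had a blood region, it differed by 22.2 percentage points.

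**Figure D2:**
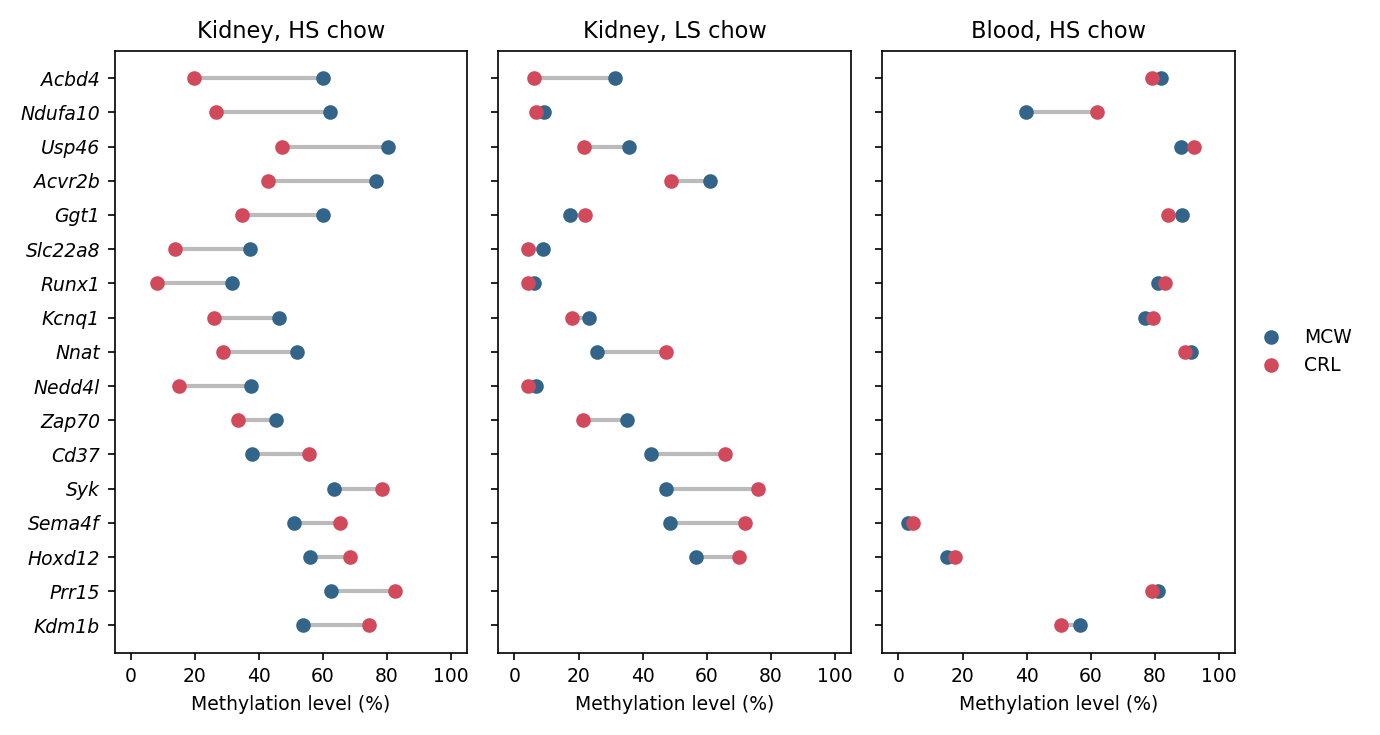
Mean methylation level (%) of 17 named regions in MCW (blue) and CRL (red) T cells of kidney on HS chow, kidney on LS chow and blood on HS chow; each row is 1 region of the gene named at the left, and a missing pair means that no region of that table overlapped it. In the left panel the upper 11 regions are lower in CRL and the lower 6 higher, while most blood pairs lie close together.

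Several genes carried more than 1 lower region. Camta1, a calmodulin-binding transcription activator, had 10 of 45 regions lower in CRL and 0 higher, between 29.5% and 51.7% in MCW and between 15.5% and 29.7% in CRL. Rasal3, a Ras GTPase activating protein of T cells, had 5 of 7 regions lower, Jak3, the kinase of the common gamma chain receptors, 4 of 5, B4galnt1, a ganglioside synthase, 4 of 6, and Agap2, an Arf GTPase activating protein, 4 of 9. Ccdc40, a gene of motile cilia, had 5 of 27 lower, though its median over all 27 regions was only -0.18 percentage points. In Rasal3 the median over all 7 regions was -11.6 percentage points. The lower Rasal3 region of 21 CpGs was at 19.1% in MCW and 8.68% in CRL on HS chow, but at 7.00% and 31.3% on LS chow, where it was called higher. The LS values depend on the overlapping region that is read. In the kidney against blood comparisons of LS rats they were 8.60% in MCW and 18.1% in CRL kidney, a smaller gap.

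Regions that differed between colonies on HS chow were mostly regions that differ between kidney and blood in other rats. The kidney against blood tables of MCW and CRL rats on LS chow share no library with the HS comparison. Of their regions, 28% in MCW and 20.5% in CRL were called lower in kidney than in blood, and 2.31% and 1.99% higher. They matched 17524 of the 35347 regions. Of the 1467 matched regions lower in CRL on HS chow, 1415 (96.5%) had been called lower in kidney than in blood in both colonies on LS chow, whereas this held for 37.2% of all matched regions. The 37.2% is not matched by level. It includes 4502 regions within 5 percentage points between tissues and with blood under 5%. Their median in MCW kidney on HS chow was 0.81%, and 0 of them were called lower in CRL. How much of the contrast follows from level alone was not tested. Among the 6524 regions lower in kidney than in blood, the colony difference had a median of -6.96 percentage points (quartiles -10.8 and -3.83), 92.5% were lower in CRL and 21.7% were called so. Their median level was 74.4% in blood and 21.9% in kidney on LS chow, and 37.6% in MCW and 27.9% in CRL kidney on HS chow. The MCW group was thus nearer to the blood level than the CRL group was.

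The sign turned at regions that were higher in kidney than in blood. The 436 such regions had a median colony difference of 5.04 percentage points (quartiles 2.07 and 8.41), 79.6% were higher in CRL, 40 were called higher and 3 lower. Here blood was at a median of 6.12% and kidney at 35.7% on LS chow, with 38.2% in MCW and 41.8% in CRL kidney on HS chow. Where the tissues lay within 5 percentage points of each other and blood was at 60% or more, the median colony difference was -0.97 over 263 regions and 0 were called (by the same rule, 21.7% of the kidney-lower regions were). The 2 classes differ in level, with medians of 78.2% and 37.6% in MCW kidney on HS chow. Of all regions at 60 to 80% in MCW, only 2.33% were called lower, so that few calls could fall among the 263. Where blood was under 5%, it was -0.34 over 4502 regions with 1 higher and 0 lower. The unadjusted Mann-Whitney p of the authors gave the same counts in these 2 classes.

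In kidney on LS chow the same 2 classes also had colony differences of opposite sign, with a median of -1.76 over 3967 kidney-lower regions (57.1% negative) and of 9.01 over 320 kidney-higher regions (15% negative). Those LS libraries also enter the tables that define the classes. In blood on HS chow both medians were above 0, at 1.18 over 3049 kidney-lower regions and 1.42 over 239 kidney-higher regions. Across the 17524 regions, Pearson's r between the tissue difference on LS chow and the colony difference on HS chow was 0.73 (0.743 over 17225 regions without ribosomal DNA). This is a description across regions, which share the libraries and the fragments of the assay and are not independent replicates.

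**Figure D3:**
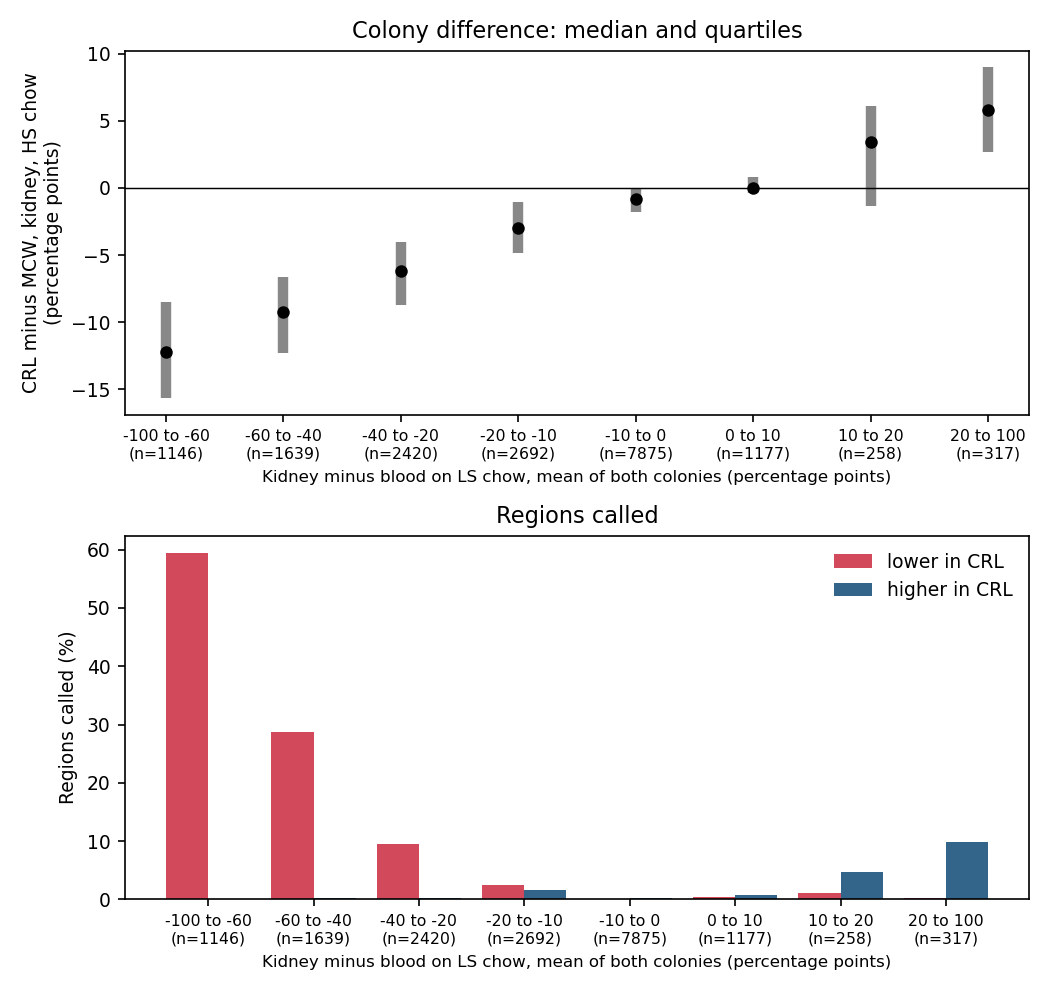
Regions are binned by their kidney minus blood difference on LS chow (percentage points, mean of both colonies). The upper panel gives the median (points) and quartiles (bars) of the colony difference in kidney on HS chow, and the lower panel the percent of regions called lower or higher in CRL. The median runs from -12.2 in the bin furthest below blood, where 59.4% were called lower, to 5.81 in the bin furthest above.

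Some markers of the kidney epithelium carried lower regions too. Of 33 genes of the kidney epithelium with a region, 10 carried a region lower in CRL and 0 a higher one, beside 10.3% of all 7194 genes for lower and 0.695% for higher. Among genes with a region of at least 10% in 1 colony, these were 10 of 27, beside 16.8% of 4380 genes. The levels of the 103 regions of the list, in percent, summed to 1997 in MCW and 1646 in CRL, and the median difference was -1.24 beside -0.64 for all regions with a gene. Ggt1, which breaks down glutathione at the tubule brush border, was at 60.001% in MCW and 34.7% in CRL (chromosome 20 from 16213932 to 16214040, the authors' deposited table gives an adjusted p of 0.00164). It was at 17.2% and 21.9% in kidney on LS chow and at 88.4% and 84.2% in blood on HS chow.

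The promoter of Slc22a8, an organic anion transporter of the proximal tubule, was at 37.2% and 13.8%, and Slc4a4, its sodium bicarbonate cotransporter, at 53.7% and 29.0%. Of the 25 epithelial regions that were lower in kidney than in blood on LS chow, 24 were lower in CRL, with a median of -6.15 percentage points, beside -7.18 over the 3000 such regions of all genes. The part that epithelial DNA has in the colony difference was not tested. No epithelial marker carried a region called higher in CRL, also by the authors' unadjusted Mann-Whitney p (0 of 103 regions).

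Markers of other cells were counted in the same way. Of 9 myeloid genes 2 carried a lower region, Cebpe (promoter, 71.6% in MCW and 52.0% in CRL), a granulocyte transcription factor, and Fcgr1a, an Fc receptor (33.3% and 19.3%). Of 21 endothelial and stromal genes Tie1, a receptor kinase (31.7% and 19.5%), and Vwf, von Willebrand factor (32.8% and 21.8%), carried a lower region, and Nos3, the endothelial nitric oxide synthase, a higher one (62.6% and 74.0%). Among genes with a region of at least 10% in 1 colony, 2 of 6 myeloid genes carried a lower region. For endothelial and stromal genes it was 2 of 18 (11.1%), beside 16.8% of all such genes. None of 3 B cell genes and none of 2 natural killer cell genes was called, a base too small to set beside 10.3%. With the authors' Mann-Whitney p unadjusted, under 0.05 and the same minimum difference, 1 of 18 B cell regions was lower. The levels summed to 657 in MCW and 582 in CRL over 36 myeloid regions and to 1979 and 1858 over 83 endothelial and stromal regions. The sums were 451 and 399 over 18 B cell regions and 169 and 170 over 2 natural killer cell regions. The part of these cells in the colony difference was not tested.

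Some T cell genes carried lower regions in their gene bodies. Of 14 T cell receptor and identity genes with a region, 3 carried a lower one and 0 a higher one. All 14 had a region of at least 10% in 1 colony, and 3 of 14 (21.4%) is near the 16.8% of all such genes. The 3 were Zap70, the kinase of the receptor (45.3% in MCW and 33.4% in CRL), the Src kinase Fyn (38.3% and 23.6%) and the adaptor Skap1 (63.1% and 45.7%). All 5 called regions of the list were lower in kidney than in blood on LS chow in both colonies, at 89.6% in MCW blood for Zap70 and 98.3% for Fyn. The promoter of Cd8a, the cytotoxic co-receptor, was at 63.5% and 74.4%, a difference of 10.9 percentage points, and was not called, since the authors' deposited table gives an adjusted p of 0.0927. With the authors' Mann-Whitney p unadjusted, 2 of the list's 40 regions would be higher in CRL and 5 lower.

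Of 19 transcription factors of T cells 5 carried a lower region and 0 a higher one. Among those with a region of at least 10% these were 5 of 14 (35.7%), beside 16.8% of all genes. Runx1, a regulator of blood cell development, was at 31.5% in MCW and 8.35% in CRL over 18 CpGs (chromosome 11 from 36371857 to 36372031, the authors' deposited table gives an adjusted p of 1.06e-11), at 6.11% and 4.14% in kidney on LS chow and at 81.1% and 83.3% in blood on HS chow. Runx3, needed for cytotoxic T cells, was at 31.3% and 11.4% and Foxo3, a regulator of T cell quiescence, at 26.3% and 6.89%. Gata3 and Bcl6, which direct helper and follicular helper cells, also carried lower regions. In each of Runx1 and Foxo3 the LS kidney groups were both under 10%, and MCW on HS chow was the kidney group that stood apart.

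Genes of cytokine, innate and activation signalling were called lower at shares near that of all genes. Among genes with a region of at least 10% in 1 colony, the share lower was 20% of 10 cytokine genes, 20% of 10 innate genes, 14.3% of 7 activation and exhaustion genes and 28.6% of 21 calcium, potassium and small G protein genes, beside 16.8% of all genes. Of 13 cytokine, receptor and effector genes Il12rb1 (59.1% in MCW and 43.3% in CRL), a chain of the interleukin 12 receptor, and Jak3 (37.7% and 20.7%) carried a lower region. Of 23 calcium, potassium and small G protein genes 6 did, among them Prkce, a protein kinase C (26.7% and 5.50%), Sh2d3c, an adaptor of integrin signalling (28.0% and 10.6%), and Itpr1, the calcium channel of the endoplasmic reticulum (28.8% and 12.1%). Of 13 innate and inflammasome genes Nod2, a sensor of bacterial cell wall (43.5% and 25.2%), and Irf8 (41.0% and 26.4%) did. Egr1 was the called gene among 8 of activation and exhaustion (promoter, 19.4% and 7.05%).

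Ccr7, the lymph node homing receptor, was the called gene among 10 of trafficking. Its region was at 80.02% in MCW and 69.2% in CRL kidney but at 23.6% and 37.5% in blood, where it was called higher in CRL. Of 15 genes of all leukocytes, Cd37, Vav1 (43.3% and 28.2%) and Wipf1 (29.4% and 13.1%) carried a lower region, and Cd37 also a higher one. Among genes with a region of at least 10% in 1 colony, the share lower was 20% of 15 leukocyte genes. It was 14.3% of 7 trafficking genes, and both shares are near the 16.8% of all such genes.

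Cd37, a tetraspanin of leukocytes, thus held both directions within a few kilobases of chromosome 1. A promoter region from 102302265 to 102302380, at 83.7% in MCW blood on LS chow, was at 61.0% in MCW and 42.2% in CRL kidney on HS chow. Another promoter region from 102300452 to 102300687, at 1.97% in MCW blood, was at 37.8% and 55.6%, and it was higher in CRL on LS chow too, at 42.7% and 65.7%. CRL kidney lay further from blood than MCW kidney at both.

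Genes of salt handling and blood pressure carried a lower region at 5 of 19 genes (26.3%) and a higher one at 1. All 19 had a region of at least 10% in 1 colony, and the share among all such genes was 16.8% for lower, while 0.695% of all genes carried a higher one. Nedd4l, the ubiquitin ligase that removes the epithelial sodium channel, was at 37.7% in MCW and 15.0% in CRL (chromosome 18 from 59773463 to 59773542), against 6.72% and 4.16% in kidney on LS chow. Tbxa2r, the thromboxane receptor, was at 29.6% and 10.3%, and Ace, the angiotensin converting enzyme, at 24.6% and 11.6%. The oxidase gene Nox4 also carried a lower region, and Nos3 the higher one. The regions of Nedd4l, Tbxa2r and Ace were between 78.8% and 93.4% in blood of LS rats of both colonies.

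Imprinted genes, of which 1 parental copy is methylated, had 11 of 25 genes with a lower region and 2 with a higher one. Among genes with a region of at least 10% these were 11 of 21 (52.4%), beside 16.8% of all genes. Imprinted genes held more regions each, 107 over 25 genes beside 18364 over 7194. By region, 14 of the 107 were lower (13.1%), beside 4.82% of all regions with a gene. The list's median level in MCW was 23.3%, and of all regions at 20 to 40% in MCW 29.2% were called lower. Whether imprinting has a part was not tested. The 107 imprinted regions had a median difference of -2.31 beside -0.64 for all regions with a gene. A promoter region shared by Nnat and Blcap was at 52.0% in MCW and 28.8% in CRL, the potassium channel gene Kcnq1 at 46.4% and 26.1%, and Commd1 at 32.6% and 12.6%. A gene body region of Igf2r, the receptor that degrades insulin-like growth factor 2, was at 20.3% and 1.21% over 24 CpGs, and Plagl1, a growth regulator, at 28.2% and 15.7% over 19 CpGs of its promoter. In blood of the same HS rats the Igf2r region was called higher in CRL, at 11.9% in MCW and 29.0% in CRL. In kidney on LS chow it was at 5.6% and 3.5% and was not called. Igf2r and Plagl1 are named after their values were seen. Of the 25 imprinted regions that were lower in kidney than in blood on LS chow, 25 were lower in CRL, with a median of -9.88.

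Gnas, which encodes a stimulatory G protein subunit from an imprinted locus, held both directions. A promoter region of 24 CpGs was at 37.4% in MCW and 21.9% in CRL, while another of 21 CpGs was at 23.3% and 33.7%, and at 13.6% and 44.3% in kidney on LS chow. Commd1 likewise had 1 region called lower and 1 called higher.

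**Figure D4:**
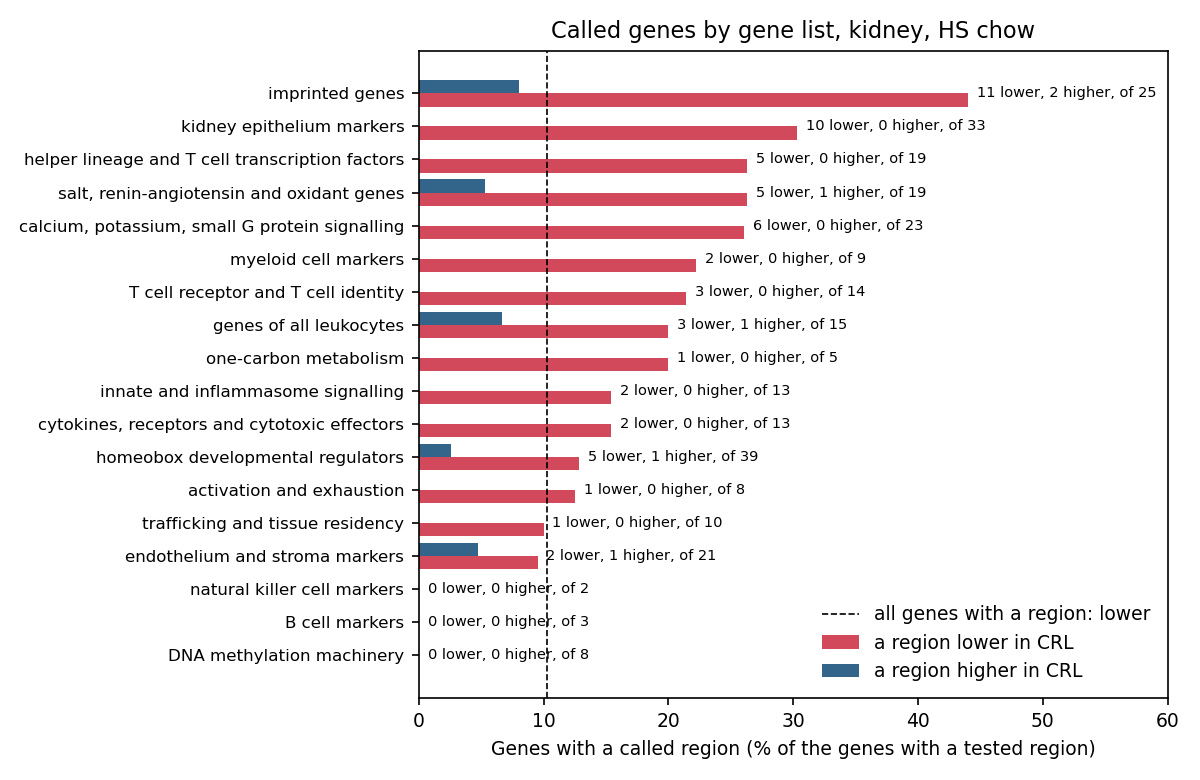
Percent of the genes of each list, among those with a tested region, that carried a region lower (red) or higher (blue) in CRL kidney T cells on HS chow. Counts stand at the bars, and the dashed line is the 10.3% of all genes with a lower region. Imprinted genes (11 of 25) and kidney epithelium markers (10 of 33) have the longest red bars.

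Other lists lay near the share of all genes or held few genes. Of 39 homeobox genes 5 carried a lower region and 1 a higher one, the promoter of Hoxd12 (56.0% in MCW and 68.4% in CRL). Of 5 genes of one-carbon metabolism, which supplies the methyl groups, Cbs carried a lower region (28.7% and 14.6%). Of 8 genes of the DNA methylation machinery none was called in the authors' test (10.3% of all genes were called lower): Dnmt1 was at 83.9% and 82.2%, and Dnmt3a at 50.7% and 45.2%, while Dnmt3b had promoter regions at or near 0% in both colonies. By the authors' unadjusted Mann-Whitney p, 0 of the 26 regions of this list passed as well. Tet1, Tet2, Tet3, Ifng, Il17a and Foxp3 had no region.

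The increases were of a different kind, since ribosomal DNA held many of them. Rows named for ribosomal RNA genes (Rn5-8s, Rn45s and Rn28s) or for LOC310926 and LOC257642, which share regions with them in the table, numbered 319. Of these 48 were higher in CRL (15.0%, beside 0.506% of all regions) and 0 lower, with a median difference of 3.03 percentage points and 77.4% above 0. The unadjusted Mann-Whitney p of the authors also gave 48 and 0. A region of 9 CpGs at Rn5-8s on chromosome 1 from 13559143 to 13559221 was at 22.5% in MCW and 44.7% in CRL on HS chow, the largest increase with a gene name (the authors' deposited table gives an adjusted p of 1.01e-08), and at 21.1% and 40.5% in kidney on LS chow. A further 33 of the 83 intergenic increases lay within 200 kb of a ribosomal row, 7 of them with the very levels of one, while 0 of the 927 intergenic decreases did. Together these made 81 of the 179 increases, leaving 98. This grouping was made after the values were seen.

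The ribosomal increase was shared by the colony comparisons of other libraries. In kidney on LS chow 28 of 332 ribosomal regions were higher in CRL (beside 1.65% of all regions there) and in blood on HS chow 63 of 237 (beside 0.946%), with 0 lower in either. Of the HS kidney regions, 279 overlapped a region of both other comparisons. Of these, 219 were higher in CRL in all 3 and 0 lower in all 3, with medians of 3.70, 3.06 and 7.52 percentage points. Neighbouring HS regions often matched the same LS or blood region, whose value then counts more than once. The 219 and the LS and blood medians are therefore not counts or medians of separate regions there. Ribosomal regions did not follow the tissue difference: the 132 that were lower in kidney than in blood on LS chow had a median of 2.02 in this comparison, against -7.10 for the other 6392. The rows lie on 4 chromosomes of the rn5 build and copies share reads, so that they are not separate measurements: the 319 regions held 284 distinct pairs of levels, 42 of them higher. For some long ribosomal regions the authors' difference exceeds the difference of their levels (Rn45s, 14.5% and 17.0% with a stated difference of 17.3). By the levels 40 of the 319 were higher and 0 lower.

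**Figure D5:**
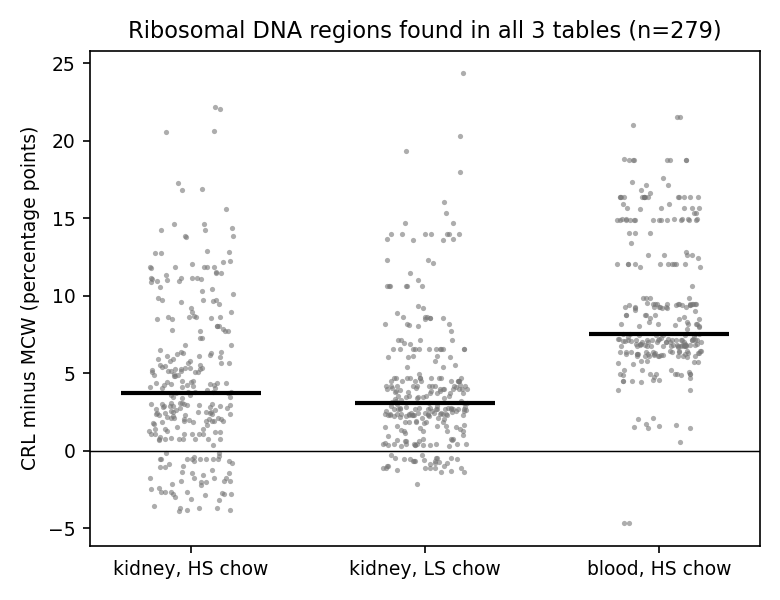
Difference in methylation between colonies (CRL minus MCW, percentage points) at the 279 ribosomal DNA regions of kidney on HS chow that overlapped a region of both other comparisons, in kidney on HS chow, kidney on LS chow and blood on HS chow. A single LS or blood region can be matched, and drawn, more than once. Points are regions, many of them copies that share reads, and the bars are medians of 3.70, 3.06 and 7.52; most points lie above 0 in each.

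Outside the ribosomal rows 131 regions were higher in CRL. Of these, 83 lay between genes and had no gene, 33 of them within 200 kb of a ribosomal row. Most genes named for the others carried 1 such region. Kdm1b, a histone demethylase, was at 53.8% in MCW and 74.3% in CRL (chromosome 17 from 19927414 to 19927591, the authors' deposited table gives an adjusted p of 0.000225). Dlgap2, a synaptic scaffold gene, was at 57.8% and 78.0%, the mitochondrial innate regulator Nlrx1 at 51.0% and 71.2%, the vomeronasal receptor Vom2r49 at 29.2% and 49.3%, and the promoter of Prr15 at 62.6% and 82.6%. Zfp316, a zinc finger gene, had 4 of 13 regions higher and 0 lower, the largest at 8.54% and 28.4%. In blood on HS chow Kdm1b (56.5% and 50.8%) and Prr15 (80.9% and 79.0%) were not called. Another Dlgap2 region was lower in CRL on both chows, at 52.7% and 37.7% on HS and at 41.2% and 24.2% on LS chow.

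Increases and decreases were set beside the same regions on LS chow. Of 132 increases that overlapped a region of the LS kidney table by at least 1 bp, 56 were also higher there (42.4% of them, and 12.2% of the 458 matched regions higher there), and 0 lower. Of the 56, 15 were ribosomal rows and 31 had no gene. Of 1054 decreases, 63 were also lower there (5.98% of them, and 40.4% of the 156 matched regions lower there), and 43 were higher. Of all matched regions, 2.91% were higher and 0.99% lower on LS chow, and of all regions tested on LS chow 1.65% and 0.51%. At the decreases the medians were 15.0% in MCW and 11.6% in CRL on LS chow and 34.6% and 19.3% on HS chow. At the 86 increases outside ribosomal rows they were 26.5% and 37.0% on LS chow and 27.9% and 42.8% on HS chow. The increases thus stood at like levels on both chows, while at the decreases MCW was the group whose level differed most between chows. All these regions were chosen on the HS levels, so that only the LS levels are apart from the choice. The difference between the chows was not tested, since no value per pool exists.

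Among genes lower on both chows, besides Acbd4 and Usp46, the promoter of Bckdk, the kinase that restrains breakdown of branched-chain amino acids, was at 54.4% and 35.4% on HS and 49.0% and 28.6% on LS chow. Hm13, a signal peptide peptidase, was at 53.2% and 35.4%, and at 31.8% and 15.2%. A gene body region of Hpse2, a heparanase homologue, was at 49.2% and 32.1%, and at 29.8% and 13.9%. In these 3 genes the colony difference lay between -20.4 and -15.9 percentage points on either chow.

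Among genes higher on both chows, the promoter of Syk, a kinase that B cells and myeloid cells use and that Zap70 resembles, was at 63.4% and 78.4% on HS and at 47.2% and 75.9% on LS chow. A gene body region of Sema4f, a semaphorin, was at 50.8% and 65.5%, and at 48.5% and 71.8%. Hoxd12 was at 56.7% and 70.1% on LS chow. In blood these regions were low: Syk was at 7.51% and 11.7% in MCW and CRL on LS chow, Sema4f at 4.65% and 4.78% and Hoxd12 at 22.3% and 21.1%. All 3 are regions where kidney stood above blood and CRL kidney stood higher.

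At the 43 regions that were lower in CRL on HS chow and higher in CRL on LS chow, the medians were 28.9% in MCW and 52.5% in CRL on LS chow, and 56.3% and 41.7% on HS chow. Of these, 17 had a gene, among them the laminin gene Lamc1 (57.5% in MCW and 29.9% in CRL on HS chow, 26.1% and 52.5% on LS chow), the guanine nucleotide exchange factor Farp1 (34.9% and 14.5%, then 14.8% and 39.8%) and Pou2f2, a transcription factor of lymphocytes (56.3% and 45.1%, then 27.8% and 52.8%). These 3 are named after their values were seen. An intergenic region on chromosome 1 from 88628944 to 88629016 nearly repeats the Pou2f2 levels. It was at 56.3% and 44.9% on HS chow and at 27.8% and 52.8% on LS chow. The copies may share reads, so that the assignment to Pou2f2 is uncertain. Regions on chromosome 17 from 39548126 and from 39225105 also have identical levels, and both Bbs4 promoter regions matched the same LS region. The 43 are therefore not all separate measurements. Where at least 50% of both regions had to be shared, 23 remained. No region went the opposite way, higher in CRL on HS and lower on LS chow.

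Blood of the same HS rats showed few of the kidney decreases. Of 849 kidney decreases with a blood region, 10 were also lower in CRL blood (1.18%) and 48 were higher. Of all matched regions, 0.224% were lower and 1.82% higher in CRL blood, and of all blood regions 0.167% and 0.946%. The median level of these 849 regions was 74.7% in MCW and 75.2% in CRL blood. Of 136 kidney increases with a blood region, 37 were also higher in CRL blood (27.2%), 21 of them ribosomal and a further 12 within 200 kb of a ribosomal row. The kidney and blood libraries come from the same pools, so that these shares are not from independent rats. Whether the colony difference differs between tissues was not tested.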

How the data were processed

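The labels' protocols describe bisulfite conversion and 100 cycles of paired-end sequencing, and the submitters' processing notes name the rn5 build. The sources used here name neither an aligner nor a caller. The authors deposited 15 tables of regions, 9 of them used here, each with the methylation level of 2 groups as a fraction per the file headers (text in percent). The deposited difference of the groups is on the same scale, first minus second group, and was turned to CRL minus MCW. The deposited p-value columns hold a Mann-Whitney p-value, an adjusted p-value, checked to be its Benjamini-Hochberg form over the table, a q-value and 1 other p-value. The number of CpGs per region is given by the authors. Depth per sample is unknown, so no interval could be computed.

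No model was fitted, because no value per pool exists: calls use the authors' adjusted p under 0.05 and a difference of at least 10 percentage points. Regions of separate tables were matched by at least 1 shared bp. Of 7194 gene symbols, 6739 were current in RefSeq GRCr8 and 354 matched 1 synonym. The members and the 18 gene lists, among them T cell, helper factor, cytokine, activation, trafficking, methylation, one-carbon, salt, innate, imprinted, homeobox, leukocyte, signalling and other cell type genes, were chosen with earlier results of these data known. Named genes were those of the 8 largest calls and the 5 with most called regions in each direction, 3 per list, 6 called alike on both chows per direction, the largest per genomic class, and a fixed set of methylation and T cell genes; others are marked where they occur. Some genes that this rule or a list names are not reported here. Alternatives varied the p, the minimum difference, the q-value column, the levels, the CpG number, the overlap and the copies. Python 3.11.15 with pandas 2.3.3 and numpy 2.4.6 was used. Per-sample columns left unused numbered 0.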

Additional observations from a re-analysis of the deposited data

How the results depend on the processing

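The direction, with more regions lower than higher in CRL, held under each alternative to the call. The counts higher and lower were 179 and 1812 as reported. With no minimum difference they were 1343 and 6162, with a minimum of 20 percentage points 16 and 226, with the authors' q-value column under 0.05 in place of the adjusted p 9 and 96, and over regions of at least 10 CpGs 36 and 241. Of the 9308 regions with an adjusted p under 0.05, 1706 had both levels under 0.01% and 3838 differed by under 1 percentage point. An adjusted p under 0.01, the levels in place of the authors' difference, a level of at least 10%, leaving out ribosomal DNA (131 and 1812) and counting equal regions once (165 and 1759) stayed within 1.5 times; the last 2 were chosen after seeing the data. Where at least 50% of both regions had to be shared, 35 in place of 56 were higher on both chows and 46 in place of 63 lower. Regions lower on HS and higher on LS chow were 23 in place of 43. In kidney and blood alike, 15 in place of 37 were higher and 6 in place of 10 lower. Of 135 named called regions, 126 kept their call by the levels and 9 fell under 10 percentage points (8 ribosomal and 1 of Agap2). Levels of MCW HS kidney were equal within 0.01 percentage points in 97.9% and 98.2% of regions with the same bounds in other tables, and those of CRL HS kidney in 71.1% and 86.1%, a difference whose cause was not tested. No paired analysis was possible because the tables hold no value per pool, although blood and kidney libraries share pool numbers, and leaving out single pools could not be run for the same reason.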

Other observations

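The largest colony differences between genes had no gene to name. On chromosome 19 a region from 60146974 to 60147037 was at 57.5% in MCW and 19.5% in CRL kidney on HS chow, and a neighbour from 60150354 to 60150417 at 57.5% and 19.8%. The 2 neighbours have the same MCW level, so that they may not be separate measurements. On chromosome 20 a region of 8 CpGs from 9664351 to 9664473 was the largest increase of all, at 63.0% and 86.9% on HS chow, with a colony difference of 18.2 percentage points in kidney on LS chow and -1.11 in blood on HS chow.

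The authors' q-value column, under 0.05 and with at least 10 percentage points, passed 96 regions lower in CRL and 9 higher. Among them were gene body regions of Ptprs, a receptor phosphatase (25.6% in MCW and 7.84% in CRL over 24 CpGs), Shank3, a synaptic scaffold (21.7% and 6.53% over 22 CpGs), Bmp7, a growth factor of the kidney (30.9% and 10.3% over 16 CpGs), and Def6, a guanine nucleotide exchange factor of T cells (24.6% and 11.1% over 30 CpGs). These genes were chosen after their values were seen.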
